A study of Mus musculus with 13 samples.

Results

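The 10 genes described here, Fasn, Pcx, Acaca, Acly, Scd1, Gpd1, Plin1, Acsl1, Adipoq and Fabp4, are enzymes of fatty acid and glycerolipid synthesis together with lipid droplet and secreted proteins of adipocytes. They were chosen by name from the 22442 genes of the ribosome profiling (Ribo-seq) tables, with their higher footprint counts in germinal vesicle (GV) oocyte libraries from Nat10-ZcKO mice already known. Their GV values are therefore given as a description, without a test. The metaphase II (MII) libraries and the acRIP-seq libraries did not serve to choose them.

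Fatty acids are built in the cytosol from citrate that leaves the mitochondrion. Acly cleaves citrate to acetyl-CoA, Acaca carboxylates it to malonyl-CoA, Fasn assembles the saturated chain and Scd1 introduces a double bond, while Pcx replenishes the oxaloacetate that citrate synthesis consumes. Gpd1 supplies the glycerol backbone, Acsl1 activates fatty acids with coenzyme A, Plin1 coats the lipid droplet, Fabp4 carries fatty acids through the cytosol and Adipoq is a hormone secreted by adipocytes. In adipose tissue these genes are abundantly expressed together. Oocytes also contain lipid droplets and oxidise fatty acids during maturation.

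Ribo-seq counted ribosome-protected fragments (RPFs) over coding sequences in 3 WT GV, 3 Nat10-ZcKO GV, 2 WT MII and 3 Nat10-ZcKO MII libraries from mouse oocytes. The conditional knockout carried a floxed and a null Nat10 allele. Cre under the Zp3 promoter, which is active in growing oocytes and not in the surrounding somatic cells, removed part of the floxed allele. Nat10 encodes the acetyltransferase that writes N4-acetylcytidine (ac4C) on RNA. GV oocytes came from juvenile females primed with PMSG, and MII oocytes from juvenile females superovulated with PMSG and hCG. Each library pooled many oocytes. The series description mentions tamoxifen for both genotypes, whereas the study's methods describe a Zp3-Cre cross. The lysates of all Ribo-seq libraries were digested with RNase I. The acRIP-seq experiment compared 1 pull-down with an anti-ac4C antibody with 1 pull-down with IgG, both from WT GV oocytes. The study's methods give the C57BL/6J background for all mice.

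The libraries differed widely in depth and in their cell type markers. Total coding counts ranged from 4815 in WT MII library 2 to 279464 in WT GV library 2. The 12 oocyte markers held between 5.58% and 7.69% of the counts in the WT GV libraries, 11% in Nat10-ZcKO GV library 3, 1.56% in library 2 and 0.0212% in library 1. In Nat10-ZcKO GV library 1 the zona pellucida gene Zp2 had 0 counts and Padi6, a gene of the oocyte cytoplasmic lattices, had 2. WT MII library 2 held 1 oocyte marker count. Nat10 itself had 8, 11 and 3 counts in WT GV, beside 4, 1 and 5 in Nat10-ZcKO GV. The Nat10 counts overlapped between genotypes at 55.0, 39.4 and 31.2 counts scaled by library depth (CPM) in WT GV against 94.4, 19.3 and 18.0 CPM in Nat10-ZcKO GV, and they include exons outside the deleted ones. The libraries labelled Nat10-ZcKO GV 1 and 2 and WT MII 2 thus stood apart from the others of their groups.

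Together the 10 genes took 0.0412%, 0.0429% and 0.0458% of the coding counts in WT GV libraries 1, 2 and 3. Their share was 1.62%, 0.362% and 0.0357% in Nat10-ZcKO GV libraries 1, 2 and 3. Libraries 1 and 2 were far above every WT GV library and library 3 was below all of them, so the genotypes overlapped. The group means were 0.0433% ± 0.00228 (SD, n = 3) in WT GV and 0.674% ± 0.839 (SD, n = 3) in Nat10-ZcKO GV, and the SD in the knockout exceeded its mean. In bulk libraries fewer cells of one type and less RNA per cell cannot be told apart, and without matched RNA counts in this comparison a change in mRNA amount and one in ribosome loading cannot be told apart either.

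**Figure D1:**
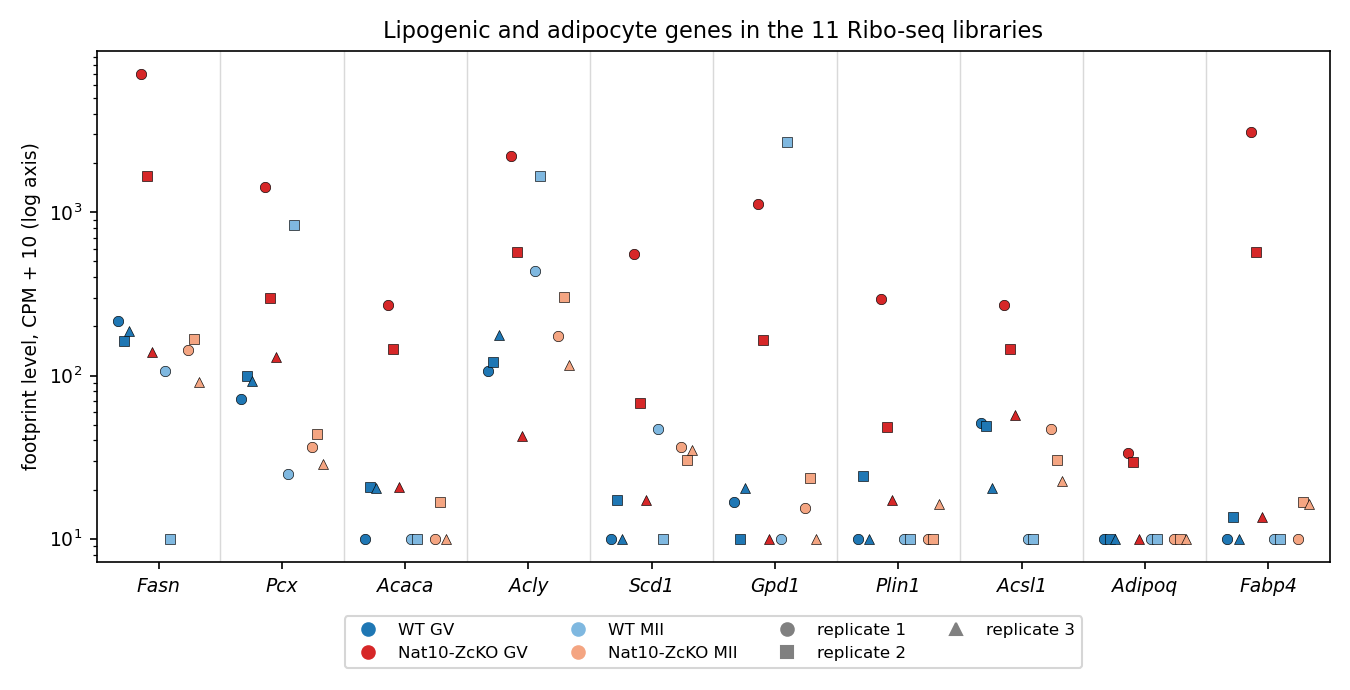
Footprint level of the 10 genes, as CPM + 10 on a log axis, in each of the 11 Ribo-seq libraries; colours mark the 4 groups and marker shapes the replicate. Nat10-ZcKO GV libraries 1 and 2 were the highest GV libraries for all 10 genes, while Nat10-ZcKO GV library 3 lay within or near the WT GV range except for its lower Acly, and WT MII library 2 held the highest Gpd1 level at 2700 CPM.

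The sequences upstream of the genes with the most counts are shown because these genes were high in the same libraries. RefSeq promoters (GRCm38.p6, the 250 bases before the transcript start, 5′ to 3′ on the gene's strand) were matched for 7 of the 10 genes, all but Scd1, Gpd1 and Fabp4, with 9 promoters in all. Capitals mark matches on either strand. The E-box was searched as CACGTG. The sterol regulatory element was searched as TCACNCCAC. The box bound by nuclear factor Y was searched as CCAAT and the GC box as GGGCGG. The TATA box was searched as TATAAA and the nuclear receptor half-site as AGGTCA. Fasn, Acly and Pcx carried the most counts of the 10, Acsl1 promoter 2 held the sterol element match, and Plin1 held no match.
Fasn promoter, chr11:120824548-120824797, minus strand: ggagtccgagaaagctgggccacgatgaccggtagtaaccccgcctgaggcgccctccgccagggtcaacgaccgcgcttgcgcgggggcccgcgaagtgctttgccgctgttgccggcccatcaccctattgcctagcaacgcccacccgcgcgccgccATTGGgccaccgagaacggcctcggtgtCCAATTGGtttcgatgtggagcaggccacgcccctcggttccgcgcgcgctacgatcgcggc
Acly promoter, chr11:100528001-100528250, minus strand: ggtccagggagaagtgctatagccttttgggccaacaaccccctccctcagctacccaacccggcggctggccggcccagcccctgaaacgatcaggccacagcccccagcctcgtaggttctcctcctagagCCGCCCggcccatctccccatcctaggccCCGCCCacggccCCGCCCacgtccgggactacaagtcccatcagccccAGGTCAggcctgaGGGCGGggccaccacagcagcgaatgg
Pcx promoter, chr19:4510222-4510471, plus strand: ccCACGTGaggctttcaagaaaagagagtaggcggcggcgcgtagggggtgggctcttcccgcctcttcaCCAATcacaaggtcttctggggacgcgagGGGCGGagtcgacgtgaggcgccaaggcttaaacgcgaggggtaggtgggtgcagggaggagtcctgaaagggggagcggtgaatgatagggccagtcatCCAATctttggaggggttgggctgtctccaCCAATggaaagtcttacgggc
Acsl1 promoter, chr8:46490716-46490965, plus strand: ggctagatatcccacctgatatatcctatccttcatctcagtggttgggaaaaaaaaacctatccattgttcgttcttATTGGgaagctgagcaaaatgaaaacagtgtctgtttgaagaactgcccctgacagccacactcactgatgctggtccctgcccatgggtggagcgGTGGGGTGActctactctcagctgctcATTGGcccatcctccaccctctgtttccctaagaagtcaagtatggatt
Plin1 promoter, chr7:79732777-79733026, minus strand: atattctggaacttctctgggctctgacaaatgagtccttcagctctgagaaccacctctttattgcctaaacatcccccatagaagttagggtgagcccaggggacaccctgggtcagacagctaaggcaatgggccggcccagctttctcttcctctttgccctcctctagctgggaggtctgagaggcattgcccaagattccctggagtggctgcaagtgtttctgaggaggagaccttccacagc

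CCAAT matches occurred in 4 of the 9 promoters and in 33.8% of 32817 mouse promoters of the same length. In Fasn they began at positions -90, -62 and -59 from the start, the last 2 overlapping each other, and Pcx promoter 1 held them at -180, -51 and -21. GC boxes occurred in 3 of the 9 promoters and in 32.7% of all promoters, with 4 in Acly. The E-box was present in 1 of 9, in Pcx promoter 1, against 6.02% of all promoters, and the sterol element in 1 of 9, in Acsl1 promoter 2, against 1.05%. The half-site was found in Acly alone of the 9, against 14% of all promoters. A TATA box was found in 0 of 9, against 12.4%. None of the libraries measured binding or transcription at these sequences.

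Fasn (ENSMUSG00000025153.9; chromosome 11, 120805846 to 120824547, minus strand, GRCm38) encodes fatty acid synthase and had the most counts of the 10 genes, 584 over the 11 libraries. WT GV libraries 1, 2 and 3 held 30, 43 and 17 Fasn counts, or 206, 154 and 177 CPM. The Nat10-ZcKO GV libraries held 298, 86 and 36 counts, or 7035, 1663 and 129.9 CPM. Libraries 1 and 2 were above every WT GV library and library 3 was below them all. Relative to the pooled WT GV counts the CPM ratio was 40.7 (95% interval 32.1 to 52.1) in library 1, 9.63 (7.08 to 13.1) in library 2 and 0.752 (0.496 to 1.12) in library 3. These intervals are exact for independent counts and, like all others on counts here, leave out the spread between libraries. PCR copies of a footprint are not independent molecules, so the intervals may understate the counting error too.

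Acly (ENSMUSG00000020917.17; chromosome 11, 100476353 to 100528000, minus strand), the ATP citrate lyase that supplies cytosolic acetyl-CoA, had 14, 31 and 16 counts in WT GV libraries 1, 2 and 3, or 96.2, 111 and 166 CPM. It had 94, 29 and 9 counts in the Nat10-ZcKO GV libraries, or 2219, 561 and 32.5 CPM. The pattern matched that of Fasn, with library 3 below all WT GV libraries. The ratio to pooled WT GV was 19.0 (13.6 to 26.6) in library 1, 4.79 (2.97 to 7.57) in library 2 and 0.277 (0.121 to 0.562) in library 3.

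Pcx (ENSMUSG00000024892.17; chromosome 19, 4510472 to 4621752, plus strand), the mitochondrial pyruvate carboxylase, had 9, 25 and 8 counts in WT GV, or 61.9, 89.5 and 83.2 CPM, and 60, 15 and 33 counts in Nat10-ZcKO GV, or 1416, 290.1 and 119 CPM. All Nat10-ZcKO GV libraries lay above all WT GV libraries. The ratio was 17.6 (11.7 to 26.7), 3.60 (1.85 to 6.62) and 1.48 (0.907 to 2.39) in libraries 1, 2 and 3.

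Acaca (ENSMUSG00000020532.18; chromosome 11, 84129672 to 84401651, plus strand), the acetyl-CoA carboxylase of the committed step, was sparse. It had 0, 3 and 1 counts in WT GV and 11, 7 and 3 in Nat10-ZcKO GV. Its CPM of 260 and 135 in libraries 1 and 2 was above the WT GV range of 0 to 10.7, and library 3, at 10.8 CPM, was level with the highest WT GV library. The ratio to pooled WT GV was 33.8 (10.0 to 146) in library 1 and 17.6 (4.48 to 82.2) in library 2.

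Scd1 (ENSMUSG00000037071.3; chromosome 19, 44394455 to 44407879, minus strand), the stearoyl-CoA desaturase, had 0, 2 and 0 counts in WT GV and 23, 3 and 2 in Nat10-ZcKO GV. Library 1 was highest, at 543 CPM, followed by library 2 at 58.0 CPM, while library 3, at 7.22 CPM, was level with the highest WT GV library at 7.16 CPM. The ratio in library 1 was 141 (35.0 to 1238). Against the 2 pooled WT GV counts, the ratio in library 2 was 15.1 (1.73 to 181) and in library 3 it was 1.88 (0.136 to 25.9).

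Gpd1 (ENSMUSG00000023019.12; chromosome 15, 99717515 to 99725005, plus strand), the cytosolic glycerol-3-phosphate dehydrogenase, had 1, 0 and 1 counts in WT GV and 47, 8 and 0 in Nat10-ZcKO GV. Library 1 reached 1109 CPM and library 2 155 CPM, whereas the WT GV libraries reached at most 10.4 CPM. The ratio was 289 (75.7 to 2457) in library 1 and 40.3 (8.04 to 390) in library 2. In library 3 a count of 0 allowed up to 10.8 CPM.

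Acsl1 (ENSMUSG00000018796.13; chromosome 8, 46471037 to 46536051, plus strand), the long-chain acyl-CoA synthetase of adipose tissue and liver, moved least among the 9 genes with at least 10 counts over the GV libraries in Nat10-ZcKO GV library 1. It had 6, 11 and 1 counts in WT GV, or 41.2, 39.4 and 10.4 CPM, and 11, 7 and 13 in Nat10-ZcKO GV, or 260, 135 and 46.9 CPM. All Nat10-ZcKO GV values were above all WT GV values. The ratio was 7.52 (3.21 to 16.8) in library 1, 3.92 (1.38 to 9.83) in library 2 and 1.36 (0.612 to 2.93) in library 3.

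Plin1 (ENSMUSG00000030546.14; chromosome 7, 79720218 to 79732903, minus strand), the perilipin of adipocyte droplets, had 0, 4 and 0 counts in WT GV and 12, 2 and 2 in Nat10-ZcKO GV. At 283 CPM, library 1 exceeded the WT GV maximum of 14.3 CPM, with a ratio of 36.9 (11.2 to 157). The ratio in library 2 was 5.04 (0.456 to 35.2), an interval that includes no change, and in library 3 it was 0.940 (0.0850 to 6.56).

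Fabp4 (ENSMUSG00000062515.3; chromosome 3, 10204088 to 10208576, minus strand), the adipocyte fatty acid binding protein, showed the widest contrast. It had 0, 1 and 0 counts in WT GV and 131, 29 and 1 in Nat10-ZcKO GV, so nearly all of its 164 counts over the 11 libraries came from Nat10-ZcKO GV libraries 1 and 2. These stood at 3092 and 561 CPM. Against the 1 pooled WT GV count the ratio was 1611, with an interval that began at 284, in library 1, and 292, with an interval that began at 48.4, in library 2. Library 3, at 3.61 CPM, was level with WT GV library 2 at 3.58 CPM.

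Adipoq (ENSMUSG00000022878.5; chromosome 16, 23146536 to 23158028, plus strand), the adiponectin gene, had 2 counts in all, 1 each in Nat10-ZcKO GV libraries 1 and 2. The 9 other libraries held 0, which allowed up to 10.7 CPM in the deepest and 623 CPM in the shallowest. Adipoq was not detectably different between any libraries at this depth, and no fold is given.

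On the fold of CPM + 10 over the WT GV mean, a scale that understates low genes, 9 of the 10 genes could be placed among the 7143 genes with at least 10 GV counts, and Adipoq was not placed. In Nat10-ZcKO GV library 1, 9 of these 9 were at least 4-fold higher, where 13.6% of all genes were. In library 2 the number was 6 of 9, against 9.25% of all genes, and Pcx, Plin1 and Acsl1 fell short at 3.40-fold, 3.30-fold and 3.60-fold. In library 3 it was 0 of 9, against 0.084%. The value nearest above the limit was 4.24-fold, for Acly in library 2, and 3.60-fold, for Acsl1, was nearest below it. The median fold of the 9 genes was 19.9, 5.49 and 1.22 in libraries 1, 2 and 3, where that of all 7143 genes was 1.13, 0.963 and 0.886. Every Nat10-ZcKO GV library was above every WT GV library for 5 of the 9 genes, Pcx, Acaca, Scd1, Acsl1 and Fabp4, against 5.85% of all genes. For Acaca, Scd1 and Fabp4 this rested on 3, 2 and 1 counts in library 3. Since the genes were chosen for these values, nothing is read from these counts.

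**Figure D2:**
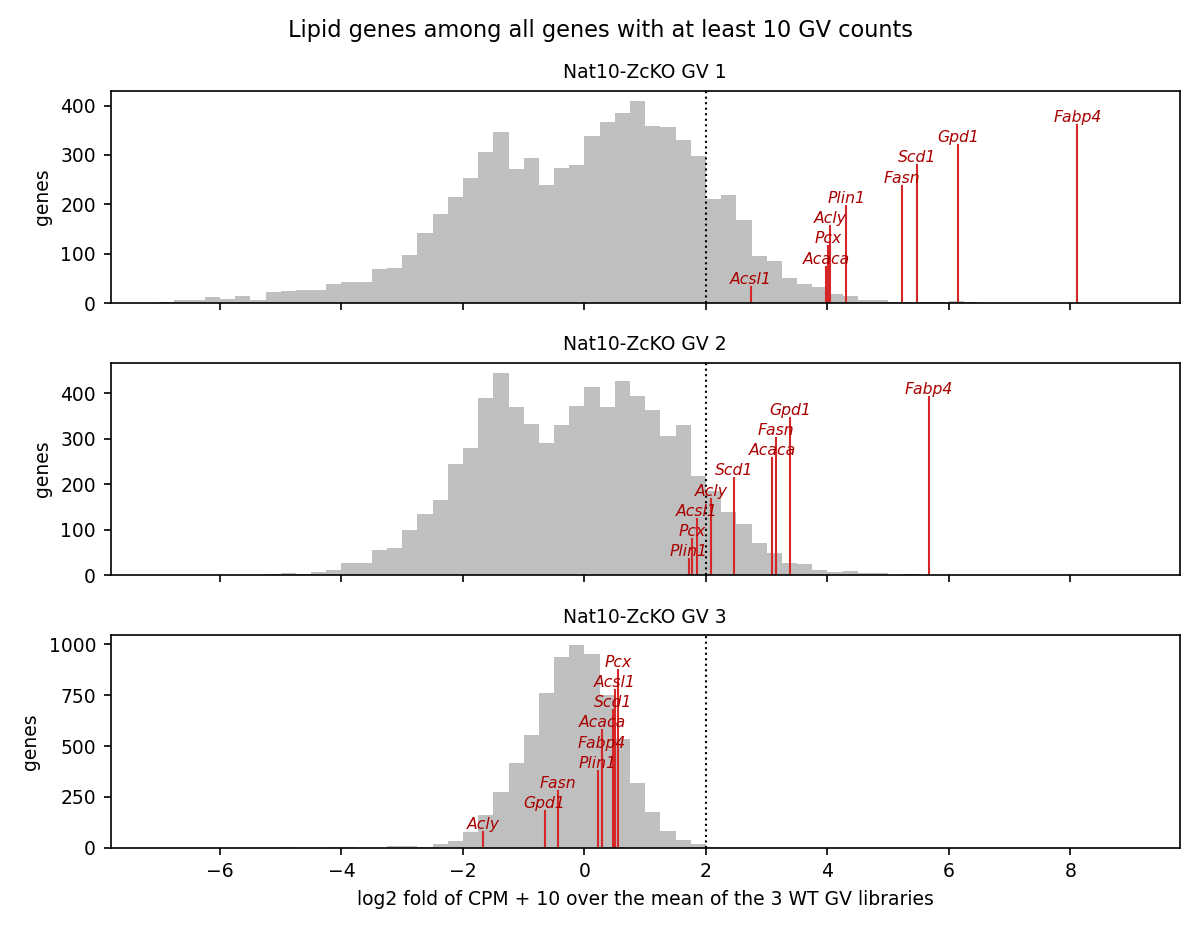
Log2 fold of CPM + 10 over the mean of the 3 WT GV libraries for the 7143 genes with at least 10 GV counts (grey, genes per 0.25 log2 bin), separately for the 3 Nat10-ZcKO GV libraries; red lines mark the 9 lipid genes and the dotted line 4-fold. All 9 lay right of the dotted line in library 1, 6 in library 2 and 0 in library 3.

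The summed CPM of the 10 genes was 4.49 times (95% interval 3.82 to 5.31) as high in library 1 as in library 2. Single genes ranged from 1.22 for Adipoq, and 1.92 for both Acaca and Acsl1, to 9.36 (2.83 to 48.7) for Scd1, with wide intervals for the sparse genes. Fasn held 43.3% (exact 95% interval 39.6 to 47.1) of the counts on the 10 genes in library 1 and 46.0% (38.7 to 53.4) in library 2, beside 50%, 35.8% and 38.6% in the WT GV libraries. Fabp4 held 19.0% and 15.5%, beside 0%, 0.833% and 0% in WT GV. Acly held 13.7% and 15.5%, beside 23.3%, 25.8% and 36.4% in WT GV. In library 3 the make-up followed WT GV for Fabp4, at 1.01%, while Pcx, at 33.3%, took a larger share and Acly, at 9.09%, a smaller one than in any WT GV library.

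**Figure D3:**
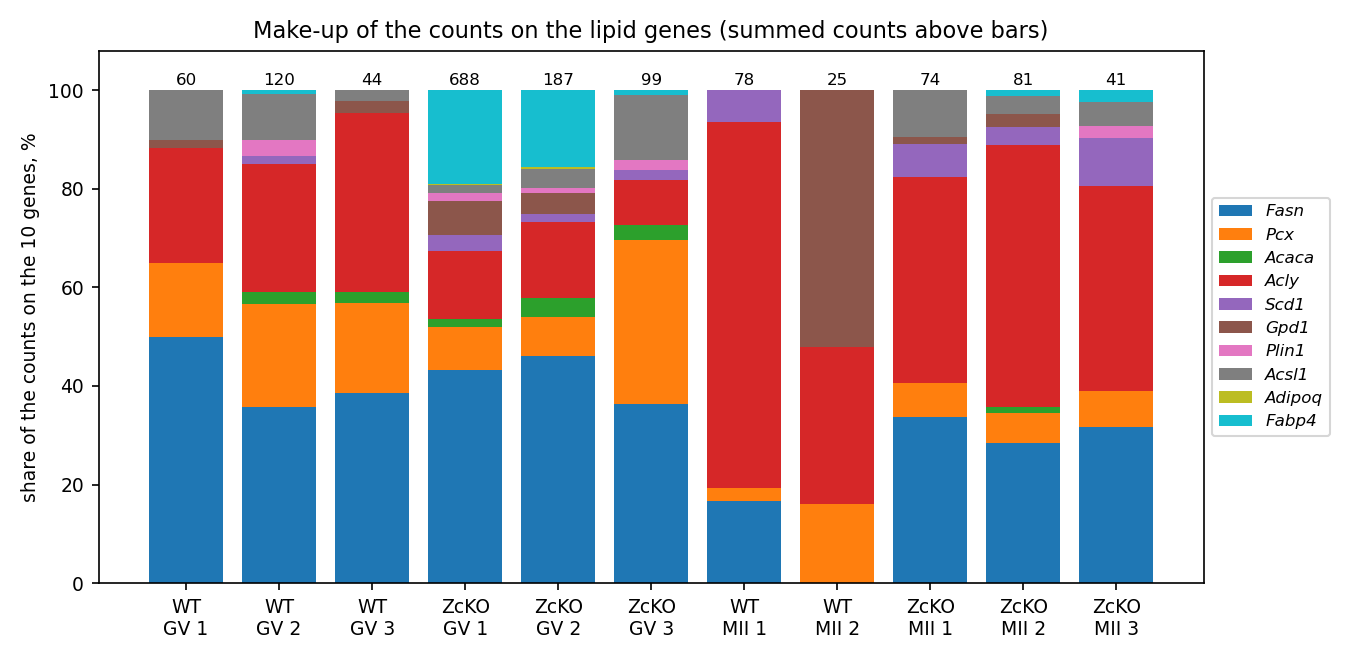
Make-up of the counts on the 10 lipid genes in each Ribo-seq library, as stacked shares in percent, with the summed counts above the bars. Fabp4 took 19.0% and 15.5% in Nat10-ZcKO GV libraries 1 and 2 and at most 2.44% elsewhere, and Gpd1 took 52% of the 25 counts in WT MII library 2.

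Levels of different genes were compared per coding length and depth, in TPM. In WT GV oocytes the order of mean TPM levels was Acly at 48.6 ± 14.9 (SD, n = 3), Fasn at 30.7 ± 4.35, Pcx at 28.6 ± 5.44 and Acsl1 at 17.9 ± 10.1. The Acly and Fasn TPM ranges did not overlap, while those of Fasn and Pcx, and of Pcx and Acsl1, did. The other 6 genes averaged between 0 TPM, for Adipoq, and 7.12 TPM, for Gpd1, with overlapping ranges. In Nat10-ZcKO GV library 1 the order was different. Fabp4 led at 10716 TPM, followed by Gpd1 at 1454, Fasn at 1285 and Acly at 918 TPM. Fabp4 also led in library 2 at 1999 TPM, ahead of Fasn at 312 and Acly at 239 TPM. In library 3 Pcx was highest, at 41.8 TPM.

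The summed shares of adipocyte and of smooth muscle markers were above every WT GV library in both Nat10-ZcKO GV libraries 1 and 2. So were those of endothelial and of blood or macrophage markers, on at most 11 counts per list in either library. Those of theca or stroma and of granulosa or cumulus markers were so in library 1 and not in library 2. The part of these markers in the result was not tested. The 16 adipocyte markers, all of which also belong to the lipid lists used further on, held 0.453% of the counts in Nat10-ZcKO GV library 1 and 0.0890% in library 2. In the WT GV libraries they held 0.00619% to 0.0136%, and in Nat10-ZcKO GV library 3 they held 0.00433%. Car3, a carbonic anhydrase abundant in fat, stood at 2337, 367 and 7.22 CPM in the Nat10-ZcKO GV libraries and at 6.87, 0 and 0 CPM in WT GV. Lpl, the lipoprotein lipase, stood at 921, 174 and 7.22 CPM beside 0, 50.1 and 72.8 CPM in WT GV. Aqp7, Adrb3, Slc2a4 and Lgals12 had 0 counts in every GV library. Of the 7 adipocyte markers with at least 10 GV counts, 5 were at least 4-fold higher in library 1, 3 in library 2 and 0 in library 3. Among all genes 13.6%, 9.25% and 0.084% were. Markers low in WT GV, such as Car3, reached 10 GV counts through libraries 1 and 2, so nothing is read from such counts of markers.

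Among other cell types, the 10 smooth muscle markers held 0.524% and 0.135% in Nat10-ZcKO GV libraries 1 and 2 against 0.0697% to 0.1002% in WT GV, and the 9 theca or stroma markers 0.876% and 0.209% against 0.0935% to 0.216%. Of 9 smooth muscle markers with at least 10 GV counts, 8 and 5 were past 4-fold higher in libraries 1 and 2, against 13.6% and 9.25% of all genes. In library 2, 1 was past 4-fold lower. The smooth muscle marker with the most GV counts was past 4-fold in neither library. Granulosa or cumulus markers held 0.923% in library 1, 0.267% in library 2 and 0.377% to 0.491% in WT GV. Lipid gene counts per granulosa marker count were 1.76 and 1.36 in libraries 1 and 2, against 0.0874 to 0.109 in WT GV and 0.139 in library 3. Per theca or stroma marker count they were 1.85 and 1.73, against 0.199 to 0.441 in WT GV and 0.230 in library 3. The 10 genes were chosen with their GV values known, so these ratios are a description. The 6 brown adipocyte markers had 0 counts in all Nat10-ZcKO GV libraries, with Cidea and Dio2 each at 1 count in WT GV. The hepatocyte markers, led by Apoa1 and Cyp2e1, reached at most 0.0135% in any GV library, the skeletal muscle markers, led by Myh4 and Tnnt3, at most 0.0116%, and Alb and Ckm were at 0 in every GV library. Endothelial markers held 0.0165% and 0.0058% in libraries 1 and 2, against 0.00069% to 0.0036% in WT GV. Blood or macrophage markers held 0.0260% and 0.0155%, against 0.0018% to 0.0089%. Endothelial Cdh5 and Kdr had 2 and 4 counts in library 1, and macrophage Lyz2 and Adgre1 had 3 each.

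**Figure D4:**
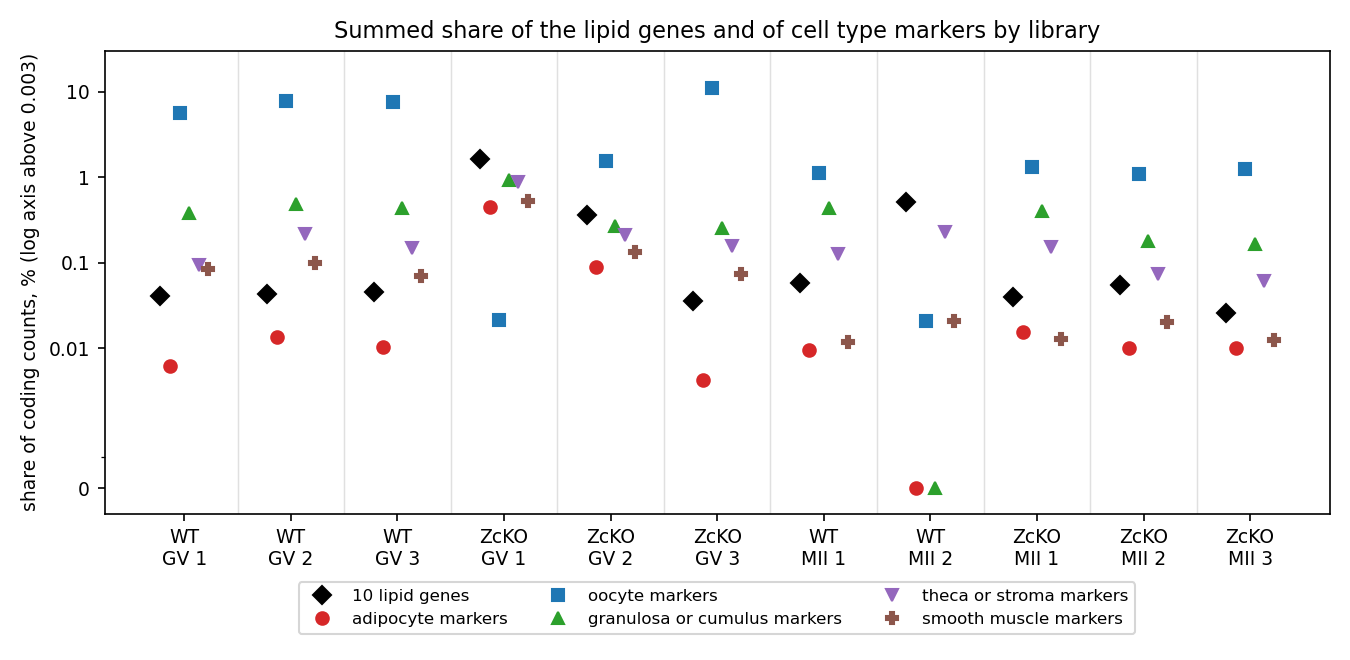
Share of coding counts, in percent on an axis that is logarithmic above 0.003, held by the 10 lipid genes and by 5 lists of cell type markers in each of the 11 Ribo-seq libraries. In Nat10-ZcKO GV library 1 the lipid genes held 1.62% and the oocyte markers 0.0212%, whereas in the WT GV libraries the oocyte markers held 5.58% to 7.69%.

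The genes whose log2(CPM + 10) ran most like the mean of the 10 over the 11 libraries, among 3840 genes with at least 50 counts, were Car3 (Pearson r = 0.973), Thrsp (0.969), Mark4 (0.965), Acta2 (0.932) and Mylk (0.926). Thrsp, a gene linked to lipogenesis in fat and liver, had 35 and 21 counts in Nat10-ZcKO GV libraries 1 and 2 and 0 in every other library. Mark4, a microtubule-affinity regulating kinase, had 43 and 7 counts there and at most 2 elsewhere. Acta2 and Mylk, the smooth muscle actin and myosin light chain kinase, had 62 and 10 and 38 and 7. These correlations are descriptions over 11 libraries, in which the same 2 shallow libraries were the high points. Over the 9 libraries left without them, an alternative chosen after seeing the data, r was 0.0502 for Car3, -0.311 for Mark4, -0.426 for Acta2 and -0.140 for Mylk, and Thrsp, at 0 in all 9, gave no value.

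A wider set of 75 lipid genes, in 8 lists that do not hold the 10 genes, was examined with the same fold. In Nat10-ZcKO GV library 1, 15 of the 50 with at least 10 GV counts were at least 4-fold higher and 4 were at least 4-fold lower, where 13.6% and 15% of all genes were. In library 2 the numbers were 8 higher and 6 lower of 50, against 9.25% and 11.9%, and in library 3 they were 0 and 1, against 0.084% and 1.13%. The median fold of the 50 genes was 2.40, 1.74 and 0.960. The 9 regulators with enough counts gave 0 higher in any library, and the transcription factor Srebf1 stood at 68.7, 107 and 187 CPM in WT GV and at 118, 96.7 and 90.2 CPM in Nat10-ZcKO GV. Insig1, which retains its partner Scap in the endoplasmic reticulum, stood at 137, 104 and 83.2 CPM beside 70.8, 19.3 and 166 CPM. Mid1ip1, which activates acetyl-CoA carboxylase, stood at 158, 111 and 83.2 CPM beside 354, 77.4 and 57.7 CPM.

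Of the 8 measurable fatty acid synthesis genes, 2 were past 4-fold in library 1 and 2 in library 2, with Thrsp in both. The share of all genes past 4-fold higher was 13.6% in library 1 and 9.25% in library 2, for this list and those below. Genes such as Thrsp, at 0 in WT GV, reached 10 GV counts through libraries 1 and 2, so nothing is read from the counts per list. The desaturase Scd2 was below 4-fold but above every WT GV library in libraries 1 and 2, at 186, 172 and 135 CPM in WT GV and 425, 290.1 and 61.3 CPM in Nat10-ZcKO GV. The mitochondrial acetyl-CoA carboxylase Acacb stood at 55.0, 89.5 and 114 CPM beside 47.2, 135 and 126 CPM, and the elongase Elovl5 at 82.5, 64.4 and 83.2 CPM beside 47.2, 116 and 68.6 CPM. Of the lipolysis genes 3 of 4 were past 4-fold higher in library 1, and Lipe, the hormone-sensitive lipase, stood at 165, 174 and 10.8 CPM in Nat10-ZcKO GV beside 0, 14.3 and 0 CPM in WT GV. The triglyceride lipase Pnpla2 stood at 236, 77.4 and 18.0 CPM beside 20.6, 57.3 and 41.6 CPM in WT GV, and its co-activator Abhd5 at 47.2, 77.4 and 72.2 CPM beside 34.4, 32.2 and 125 CPM. Fatty acid oxidation gave 4 higher of 7 in library 1 and 1 of 7 in library 2, with the trifunctional enzyme subunit Hadha at 254, 268 and 93.6 CPM in WT GV beside 519, 58.0 and 224 CPM in Nat10-ZcKO GV.

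Triglyceride and droplet genes split, with 3 of 8 past 4-fold higher in each of libraries 1 and 2, and 1 and 2 of 8 past 4-fold lower. Among all genes 13.6% and 9.25% were past 4-fold higher, and 15% and 11.9% lower. Plin2, the droplet coat protein found in most cells, stood at 27.5, 25.0 and 41.6 CPM in WT GV and at 354, 96.7 and 25.3 CPM in Nat10-ZcKO GV. Bscl2, the seipin of droplet assembly, was low in the first 2 knockout libraries, at 440.0, 365 and 520.1 CPM beside 23.6, 19.3 and 668 CPM. Plin3, another droplet coat protein, stood at 131, 114 and 93.6 CPM beside 189, 38.7 and 184 CPM. Cholesterol genes gave 0 higher in any of the 3 libraries. Fdft1, which makes squalene, stood at 694, 623 and 541 CPM in WT GV and at 47.2, 251 and 473 CPM in Nat10-ZcKO GV, and Hmgcs1 at 110.0, 150.3 and 229 CPM beside 212, 309 and 115 CPM. The fatty acid binding protein Fabp5 stood at 6.87, 53.7 and 31.2 CPM beside 0, 0 and 43.3 CPM.

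In edgeR's quasi-likelihood fit of the 6 GV libraries, with Benjamini-Hochberg adjustment over 1765 genes, 0 genes were called higher (0%) and 0 lower (0%) at an adjusted p under 0.05. At an unadjusted p under 0.05 there were 93 genes, and DESeq2 called 7 higher and 0 lower. Fasn, Pcx and Acly passed the filter on low counts, with fitted log2 changes of 4.08, 2.97 and 2.97 given as a description. Of the 75 other lipid genes 12 passed it, and 0 were called, 0 at an unadjusted p under 0.05 and 0 by DESeq2. Their lists had a median log2 change between -0.24 and 0.61, where the median of all tested genes was -0.01.

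Without Nat10-ZcKO GV library 3, the same fit called 213 of 1858 genes higher (11.5%) and 167 lower (8.99%). Among the 15 other lipid genes tested in that fit 6 rose, Thrsp, Lipe, Lpl, Car3, Acadl and Acadvl, and Bscl2 fell. Thrsp changed by 9.13 ± 0.94 (SE) on the log2 scale, a size that depends on the prior count because WT GV was at 0. Lipe rose by 4.28 ± 0.82, Lpl by 3.60 ± 0.91 and the acyl-CoA dehydrogenase Acadl by 3.62 ± 0.82. These sizes are given without a p-value. Genes low in WT GV passed the filter here through libraries 1 and 2, where they were high. The lists were also chosen with earlier results of these data known, so none of these calls, Bscl2 included, gives support of its own. Bscl2 fell by 4.37 ± 0.73 (adjusted p = 0.0107 by edgeR). All 7 of the 10 genes that passed the filter in that fit, Fasn, Pcx, Acaca, Acly, Gpd1, Acsl1 and Fabp4, had positive log2 values, from 2.40 for Acsl1 to 9.15 for Fabp4, given without a test. Without libraries 1 and 2, which leaves library 3 as a lone knockout sample assumed to vary like the others, the log2 values were -0.26 for Fasn, 0.77 for Pcx and -1.67 for Acly. In that fit Bscl2 had a log2 value of 0.81 (adjusted p = 0.174 by edgeR), Lpl -2.15 (adjusted p = 0.583) and Acadvl 0.28 (adjusted p = 0.920), while Thrsp, Lipe, Car3 and Acadl did not pass the filter. With all 6 GV libraries Bscl2 had -0.58 (adjusted p = 0.908 by edgeR) and the other 6 did not pass the filter, so these 7 calls rest on leaving out library 3.

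In MII oocytes the lipid genes could be tested, since these libraries were not used to choose them. Their summed share was 0.0578% and 0.519% in WT MII libraries 1 and 2 while Nat10-ZcKO MII libraries gave 0.0394%, 0.0552% and 0.0257%. WT MII library 2 stood alone, with 25 lipid gene counts among 4815, and the remaining MII libraries were within the span of 0.0257% to 0.0578%. Those 25 counts were 13 of Gpd1, 8 of Acly and 4 of Pcx, and the other 7 genes had 0.

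Acly had 58 and 8 counts in WT MII, or 430.1 and 1662 CPM, whereas Nat10-ZcKO MII libraries held 31, 43 and 17 counts, or 165, 293 and 106 CPM. The Nat10-ZcKO MII libraries were all below both WT MII libraries, as held for 1 of the 6 lipid genes with at least 10 MII counts and for 1.31% of the 5345 genes with that many. In edgeR's fit of the 5 MII libraries the log2 change was -1.63 ± 1.08 (SE) with an adjusted p of 0.997 over 2097 genes, so Acly was not called. DESeq2 gave -1.81 ± 0.83 (SE), with an unadjusted p of 0.0289 and an adjusted p of 0.595. Without WT MII library 2 edgeR's log2 change was -1.29 ± 0.49 (SE), with the lone WT library assumed to vary like the others.

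Fasn had 13 and 0 counts in WT MII, or 96.4 and 0 CPM, whereas Nat10-ZcKO MII libraries held 25, 23 and 13 counts, or 133, 157 and 81.4 CPM. The groups overlapped, and the 0 in WT MII library 2 allowed up to 623 CPM. The log2 change was 0.43 ± 0.94 (SE; adjusted p = 0.997 by edgeR), where the median over all tested genes was 0.37. Without WT MII library 2 it was 0.26 ± 0.68 (adjusted p = 0.9998 by edgeR).

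The other lipid genes were too sparse in MII oocytes for the fit. Pcx had 2 and 4 counts in WT MII, beside 5, 5 and 3 in the knockout, and Scd1 had 5 and 0 beside 5, 3 and 4. Gpd1 had 0 and 13 beside 1, 2 and 0, so its high level came from WT MII library 2 alone. Acsl1 had 0 and 0 beside 7, 3 and 2, the lone lipid gene of the 6 for which every Nat10-ZcKO MII library was above every WT MII library, a pattern shown by 24.4% of all genes with at least 10 MII counts. Acaca, Plin1 and Fabp4 had at most 1 count in any MII library and Adipoq had 0.

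In the MII fit 0 genes were called higher (0%) and 4 lower (0.191%) of 2097, with 0 of the 2 lipid genes tested and 0 of the 19 tested genes of the wider lipid lists called. At an unadjusted p under 0.05 edgeR gave 48 genes in all, 0 of the 2 and 0 of the 19, and DESeq2 called 0 of the 2 and 0 of the 19. Unadjusted, DESeq2 gave 22 genes higher and 44 lower, with 1 of the 2 and 1 of the 19 lower.

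The count ratio of Fasn to Acly, which depends on their coding lengths, differed between the stages. Fasn had more counts than Acly in all 6 GV libraries, from 1.06 to 4 Fasn counts per Acly count, and fewer in all 5 MII libraries, from 0 to 0.806. Per coding length, Acly was above Fasn in all 5 MII libraries, from 41.1 against 13.9 TPM in Nat10-ZcKO MII library 3 to 744 against 0 TPM in WT MII library 2. It was also above Fasn in the 3 WT GV libraries, at 37.1 against 35.1 TPM, 43.1 against 26.4 TPM and 65.4 against 30.7 TPM. Fasn was above Acly in the 3 Nat10-ZcKO GV libraries, including library 3 at 21.5 against 12.2 TPM. The GV values of both genes served to choose them, so this is a description.

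In the acRIP-seq libraries, 8 of the 10 lipid genes had a count, and Plin1 and Adipoq had 0 in both. The depth was 970997 counts for ac4C and 116232 for IgG, a ratio of 8.35, so that a single IgG count weighs as much as about that many ac4C counts. Fasn had 36 ac4C counts and 1 IgG count, a CPM ratio of 4.31 with an exact 95% interval from 0.726 to 175. Acly had 40 and 0 counts, a ratio whose exact 95% interval began at 1.24. Acsl1, the lipid gene with the most acRIP counts, had 103 and 7, a ratio of 1.76 (0.825 to 4.49).

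The remaining genes were near the limit of detection. Pcx had 4 ac4C counts and 1 IgG count, a ratio of 0.479 (0.0474 to 23.6). Acaca, Scd1, Gpd1 and Fabp4 had 5, 7, 6 and 3 ac4C counts and 0 IgG counts, fewer than the IgG floor scaled by depth, so no fold is given. Counting a gene with 0 IgG counts as above, 6 of the 8 had a ratio above 2, against 53.3% of 11883 genes with an acRIP count, and for 0 of the 8 was the lower bound above 2, against 3.69%. With 1 library per antibody there was no replicate check.

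**Figure D5:**
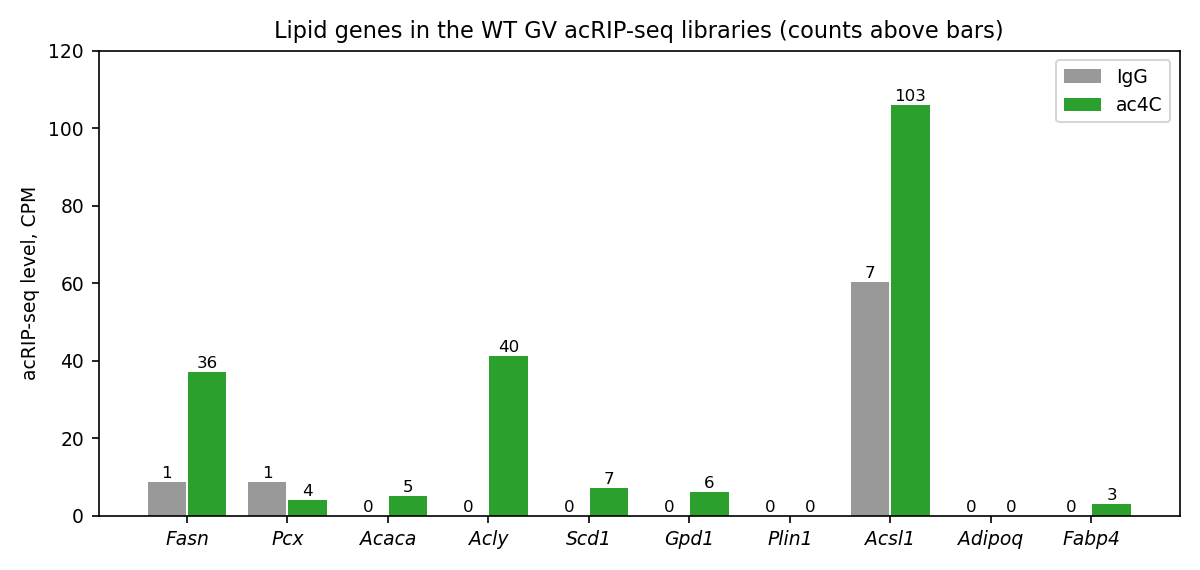
Level of the 10 lipid genes in the WT GV acRIP-seq libraries, in CPM, for the IgG (grey) and ac4C (green) pull-down, with raw counts above the bars. Acsl1 had 103 ac4C and 7 IgG counts, Acly 40 and 0 and Fasn 36 and 1, while the other 7 genes had at most 7 counts in either library.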

How the data were processed

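Ribo-seq was carried out on WT and Nat10-ZcKO oocytes at the GV and MII stages and acRIP-seq on WT GV oocytes. The authors deposited raw counts per gene, over coding sequences for Ribo-seq, with no normalization. The submitters' processing notes name cutadapt, STAR, HTSeq and the mm10 build, and their versions and settings are not given in the sources used here. Groups followed the sample labels, and nothing in the labels says that replicates came from separate animals, so p-values measure the spread between these samples. Gene symbols were matched for 22399 of 22442 genes. The 10 genes and the gene lists were chosen with earlier results of these data known.

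CPM used the total count of each library, from 4815 to 279464, so that a count of 0 (3 counts at the 95% limit) allowed 10.7 to 623 CPM. TPM used GENCODE coding lengths. The whole table was fitted in edgeR (version 4.0.16 under R 4.3.3), after filterByExpr and TMM scaling, by glmQLFit and glmQLFTest with Benjamini-Hochberg adjustment and a threshold of 0.05, separately for the 6 GV and the 5 MII libraries, with DESeq2 1.42.0 as an alternative. The fits had been tested on simulated data. Each Nat10-ZcKO GV library was set against the WT GV mean at CPM + 10, with 4-fold as the limit, among genes with at least 10 GV counts. ac4C/IgG ratios were scaled by total counts. Exact Poisson and Clopper-Pearson intervals were computed with scipy 1.17.1. The alternatives changed the fold limit, the pseudocount, the scaling, the filter, the tool and the libraries.

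Named genes were the 10 genes, listed lipid genes past the threshold, the 3 genes per lipid list and 2 markers per cell type with the most GV counts, the 5 genes most like the mean of the 10, and Nat10. The text names the ones it needs, 1 gene that the rule names is not reported here, and a few others (Aqp7, Adrb3, Slc2a4, Lgals12, Alb and Ckm, at 0, and genes called without Nat10-ZcKO GV library 3) were singled out after their values were seen.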

Additional observations from a re-analysis of the deposited data

How the results depend on the processing

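Depth limits most values, since 6 of the 10 genes had at most 4 counts in any WT GV library. With a pseudocount of 50 CPM, 2 lipid genes in place of 6 were past 4-fold in Nat10-ZcKO GV library 2. Among all genes the share fell to 1.26% from 9.25%. TMM scaling left 8, 5 and 0 past 4-fold in libraries 1, 2 and 3, against 3.98%, 4.52% and 0.602% of all genes. GV calls (0 higher, 0 lower) became 7 higher with DESeq2, 21 higher and 2 lower with all 11 libraries, 29 and 12 without a filter, and 38 and 40 without Nat10-ZcKO GV libraries 1 and 2. For the wider lipid lists they became 2 higher with all 11 libraries, 2 higher without a filter and 1 lower without those 2 libraries. Leaving out 1 GV library gave 0 to 213 genes higher, 0 to 167 lower, 0 to 6 lipid-list genes higher and 0 to 1 lower, the highest values being without Nat10-ZcKO GV library 3. MII calls (0 higher, 4 lower) became 11 lower with DESeq2, 19 lower with all 11 libraries, 2 higher and 42 lower by library size only (1 lower in the lipid lists), and 0 lower without a filter. Leaving out 1 MII library gave 0 to 1330 genes higher, 0 to 121 lower, 0 to 12 lipid-list genes higher, 0 to 1 of the lipid genes higher and 0 to 1 lower, the highest values being without WT MII library 1, where Fasn reached 7.03 (adjusted p = 0.0253 by edgeR) and the median of all genes was 6.52. Over the MII alternatives the adjusted p of Acly ranged from 0.0599, by library size only, to 1, and that of Fasn from 0.0253 to 1. Of the acRIP ratios above 2 (6 genes), 0 had a lower bound above 2 and 2 had at least 10 acRIP counts. The cause of these changes was not tested.

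Pairing by replicate number was not seen at GV, where same-numbered libraries had correlations of deviations of 0.0015, -0.0636 and 0.044. At MII they were 0.0342 and 0.137. With libraries this shallow and unlike each other, these values cannot show whether the samples were collected in pairs. With the replicate block, 0 genes were called at GV and 0 at MII.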
